A study of Mus musculus with 38 samples.

Results

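The T cell receptor complex and lineage genes described here are 9 of the 55487 genes in the tumor count table: Cd3d, Cd3e, Cd3g and Cd247, the signaling chains of the receptor; Cd4, Cd8a and Cd8b1, the coreceptors; Cd5, a surface modulator of receptor signaling; and Lck, the kinase that starts it. They were chosen by name, through their Ensembl gene identifiers, with earlier results of these data known, as were the marker lists used below. RNA-seq was available from 34 omental tumors of 2 syngeneic peritoneal models of high-grade serous ovarian cancer, 60577 grown in FVB mice and HGS2 grown in C57BL/6J mice, and from 2 monoculture libraries of each malignant cell line. Female mice, 8 to 9 weeks old, were injected intraperitoneally with 10000000 cells, and from day 21 (60577) or day 49 (HGS2) they received 3 weekly injections of carboplatin (20 mg/kg) with paclitaxel (10 mg/kg), termed treated, or of a Kolliphor and ethanol vehicle, termed control. Tumors were collected 1 day (TP1), 7 days (TP2) or 21 days (TP3) after the last dose, and no TP3 controls were collected because too few control mice were alive, so TP3 treated tumors are compared with TP2 controls and time and treatment cannot be told apart there. In 60577 there were 3 TP1 controls, 3 TP1 treated, 3 TP2 controls, 4 TP2 treated and 4 TP3 treated tumors, and in HGS2 there were 3, 3, 4, 3 and 4. Each model is 1 cell line in 1 strain with its own time course, so line, strain and days since injection cannot be told apart between models.

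The T cell receptor recognizes a peptide held by an MHC molecule, and because its antigen-binding chains have almost no cytoplasmic part, the CD3 gamma, delta and epsilon chains and the CD247 (zeta) chain carry the signal into the cell. CD4 binds MHC class II and marks helper and regulatory T cells, whereas the CD8 alpha and beta chains bind class I and mark cytotoxic T cells; both coreceptors bring LCK to the complex, where it phosphorylates the CD3 and zeta chains. CD8 alpha is also found on some dendritic cells, CD4 on some myeloid cells, CD5 on some B cells, and CD247 and LCK in natural killer cells.

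Total expected counts ranged from 19456375 to 31411938 in the 60577 tumors, from 17839635 to 49299442 in the HGS2 tumors and from 31633121 to 42461995 in the cell lines. HGS2 TP3 treated replicate 1 is in the count table but not in the study's own tables, so it entered only an alternative analysis of all 34 tumors, and 33 tumors were tested otherwise. In 3 HGS2 tumors the summed level of 6 pancreas acinar genes was far above the rest, at 59645 CPM (counts scaled to a common library size) in TP1 control replicate 3, 109734 in TP2 control replicate 2 and 58373 in TP3 treated replicate 2, against at most 1407 in every other tumor. The labels do not pair the tumors, which are separate mice. Epithelial tumor cell genes were present in all groups, with a summed level of 1584 to 2898 CPM in 60577 controls, 20.7 to 795 in HGS2 controls, 4471 to 4839 in the 60577 cell line and 773 to 1372 in the HGS2 cell line.

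In the GRCm38 annotation, 3 of the CD3 genes share a stretch of chromosome 9, where Cd3g (44969572 to 44980431, minus strand) and Cd3d (44981786 to 44987339, plus strand) start 1354 bases apart and point away from each other, and Cd3e (44998740 to 45009627, minus strand) follows. Cd8b1 (71322788 to 71337494) and Cd8a (71373427 to 71379173) lie on the plus strand of chromosome 6, 35932 bases apart, and Cd4 (124864692 to 124888221, minus strand) is on the same chromosome. Cd247 lies on chromosome 1 (165788681 to 165877277, plus strand), Cd5 on chromosome 19 (10717116 to 10739002, minus strand) and Lck on chromosome 4 (129548344 to 129573641, minus strand). RefSeq promoters of GRCm38.p6 were matched for 7 of the 9 members, and Cd4 and Cd8b1 had none in the table used. The 250 bases before the start of 5 members are printed 5′ to 3′, the divergent pair Cd3d and Cd3g first, then Cd3e, Cd5 and Cd8a. Capitals mark matches on either strand to the cores of ETS (AGGAAG), RUNX (TGTGGT), TCF/LEF (CTTTGA) and sites of the GATA family (AGATAA).
Cd3d, chr9:44981536-44981785, plus strand: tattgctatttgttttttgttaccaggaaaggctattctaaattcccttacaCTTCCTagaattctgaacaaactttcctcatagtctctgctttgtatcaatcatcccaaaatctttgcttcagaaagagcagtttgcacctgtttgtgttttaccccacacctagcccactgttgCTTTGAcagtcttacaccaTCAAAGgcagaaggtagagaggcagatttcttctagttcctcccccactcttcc
Cd3g, chr9:44980432-44980681, minus strand: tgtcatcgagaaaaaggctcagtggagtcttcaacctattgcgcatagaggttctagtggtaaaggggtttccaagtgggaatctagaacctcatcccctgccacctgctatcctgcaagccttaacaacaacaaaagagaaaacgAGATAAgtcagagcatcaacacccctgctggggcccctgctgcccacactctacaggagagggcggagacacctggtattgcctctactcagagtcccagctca
Cd3e, chr9:45009612-45009861, minus strand: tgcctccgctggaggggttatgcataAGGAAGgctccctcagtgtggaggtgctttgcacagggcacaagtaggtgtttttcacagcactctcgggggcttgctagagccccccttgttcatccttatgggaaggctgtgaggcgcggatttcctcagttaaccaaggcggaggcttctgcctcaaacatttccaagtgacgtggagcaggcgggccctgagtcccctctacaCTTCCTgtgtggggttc
Cd5, chr19:10738975-10739224, minus strand: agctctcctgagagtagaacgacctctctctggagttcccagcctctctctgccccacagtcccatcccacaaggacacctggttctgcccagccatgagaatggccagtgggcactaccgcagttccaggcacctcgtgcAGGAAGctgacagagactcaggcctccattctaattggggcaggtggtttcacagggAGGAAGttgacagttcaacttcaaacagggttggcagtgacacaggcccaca
Cd8a, chr6:71373177-71373426, plus strand: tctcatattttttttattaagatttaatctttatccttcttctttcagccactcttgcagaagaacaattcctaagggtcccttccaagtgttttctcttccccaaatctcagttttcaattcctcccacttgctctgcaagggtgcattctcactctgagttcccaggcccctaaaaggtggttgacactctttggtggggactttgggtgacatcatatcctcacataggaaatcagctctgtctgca
Of the 8 promoters of members (Lck has 2), 6 held the ETS core, as did 29.5% of all 32851 promoters in the table, and those without it were Cd3g and Cd8a. The RUNX core was in 1 of 8 (a promoter of Lck) against 14.0% of all, the TCF/LEF core in 1 of 8 (Cd3d) against 13.8% and the GATA core in 1 of 8 (Cd3g) against 9.99%. E-boxes (CANNTG, not capitalized) were in 7 of 8 against 66.2% of all, and a TATA box (TATAAA) was in 0 of 8 against 12.4%. No capitalized matches overlapped. A match describes letters in this window only.

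In the cell lines, which hold no host cells, the members were at or near the limit of detection. Cd3d, Cd3g, Cd5, Cd8a and Cd8b1 had 0 counts in all 4 libraries, which allows up to 0.0948 CPM in the least deeply sequenced library when 3 counts are taken as the floor (counting error only). Cd3e had 3 and 3 counts in 60577 and 0 and 0 in HGS2, Cd4 had 1, 1, 0 and 0, and Cd247 had 8, 4, 0 and 1. Lck was the member with most reads in the lines, with 11, 7, 12 and 17 counts, or 0.311, 0.165, 0.379 and 0.451 CPM, which was below the lowest tumor of either model (1.37 CPM in 60577 and 1.66 in HGS2).

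In untreated 60577 tumors all 9 members were detected at low levels. A gene was tested when it reached 1 CPM in at least 25% of the tumors, and all 9 members passed; Cd8b1 reached 1 CPM in 0 of 6 60577 controls and 6 of 11 treated tumors, Cd8a in 1 and 9 and Cd3d in 3 and 11, so these passed mainly through the treated and the HGS2 tumors. Cd3e, a chain that every surface T cell receptor needs, was at 1.74, 4.65 and 3.01 CPM in the 3 TP1 controls and 4.88, 3.55 and 2.51 CPM in the 3 TP2 controls. Lck was at 2.53, 5.52 and 4.12 CPM at TP1 and 8.03, 1.37 and 3.71 CPM at TP2. Cd8b1, which pairs with the CD8 alpha chain on cytotoxic T cells, stayed at or below 0.721 CPM in all 6. TP1 and TP2 controls overlapped for every member, whereas 19.4% of all genes tested had no overlap between them in either direction, and none was called between them, where 0% of all 16232 genes tested were called and 1501 had an unadjusted p under 0.05. A call here means an adjusted p under 0.05 by the quasi-likelihood test of edgeR, adjusted over all genes by the method of Benjamini and Hochberg, with a log2 fold change beyond 1; limma-voom and DESeq2 also called 0 members between these controls.

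**Figure D1:**
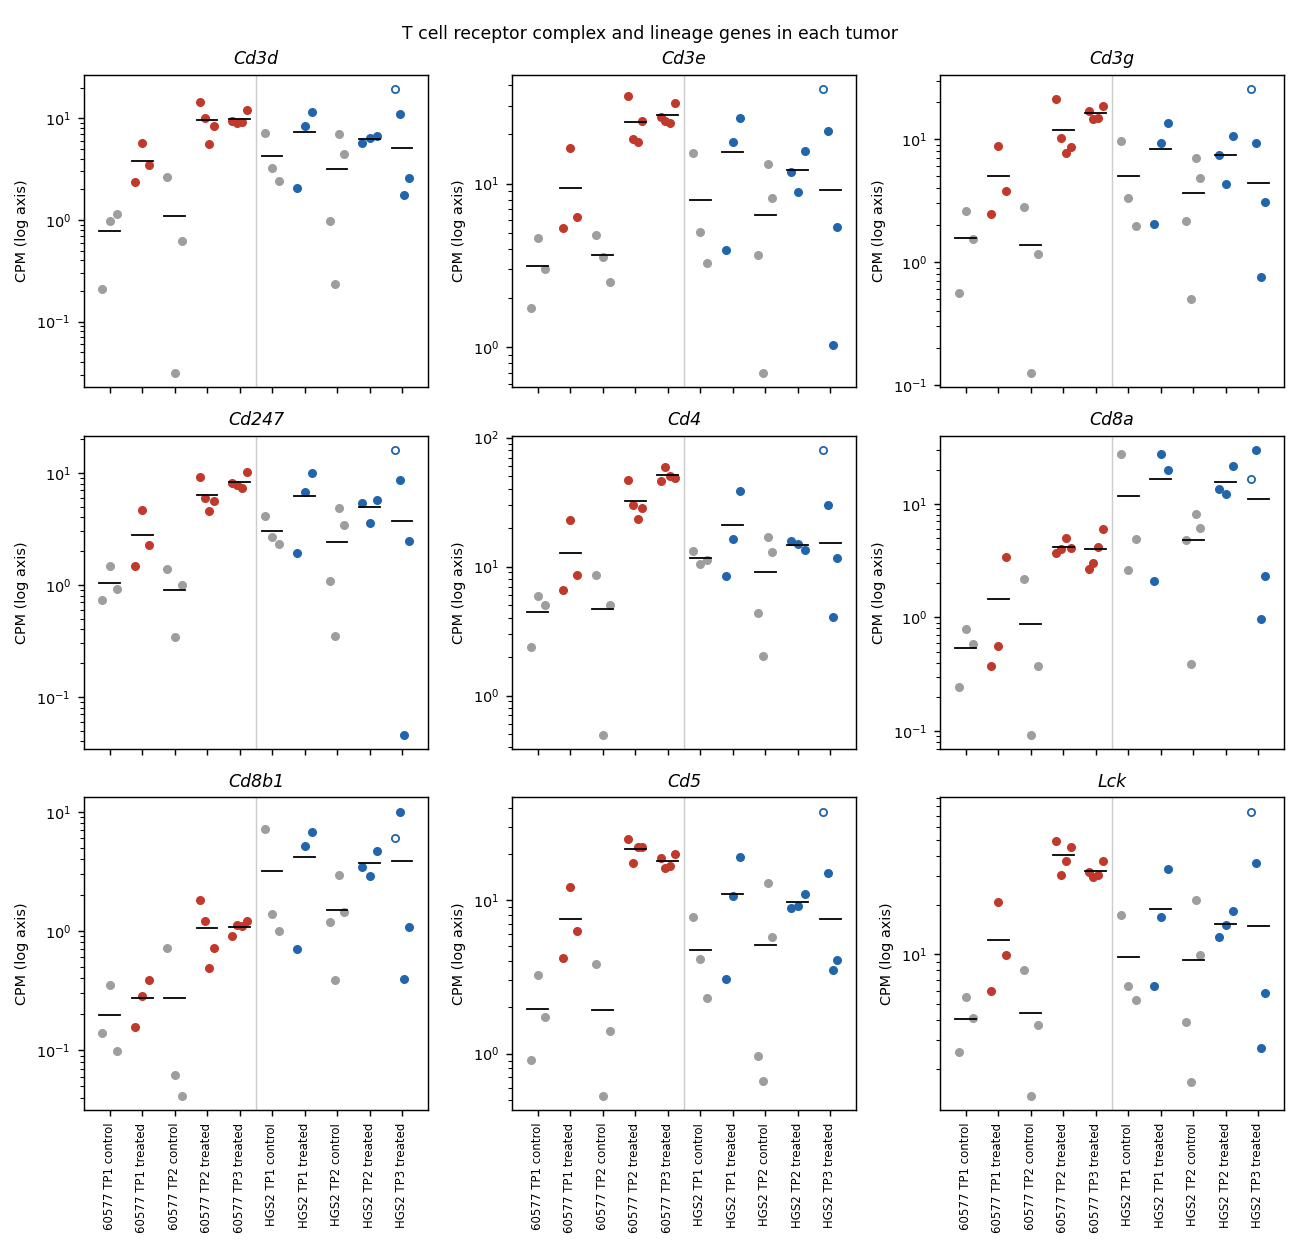
Level of each of the 9 genes in every tumor, as CPM on a log axis, by model, time point and treatment; each point is 1 tumor, grey for controls, red for 60577 treated and blue for HGS2 treated, the bar is the group mean, and the hollow point is the HGS2 TP3 treated tumor that is not among the 33 tested and not in its group mean. In 60577 the TP2 and TP3 treated points of Cd3e, 18.0 to 34.1 CPM, lie above all of its control points, whereas HGS2 treated and control points overlap.

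One day after the third dose, 5 of the 9 members had risen in 60577 tumors: Cd3d, Cd3e, Cd247, Cd5 and Lck, by 2.72 to 4.94 times. Of all genes tested, 9.66% were called higher in this comparison. Cd3e was at 5.38, 16.6 and 6.28 CPM in the 3 treated tumors, all above the 3 controls given above (log2 fold change 1.60 ± 0.43 SE, edgeR adjusted p = 0.00994). Cd3d was at 2.35, 5.70 and 3.49 CPM in treated tumors and 0.208, 0.986 and 1.14 in controls (2.30 ± 0.79, edgeR adjusted p = 0.0350). Its groups did not overlap, and treated replicate 2 was the highest of the 3 for both genes.

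Cd247 was at 1.47, 4.67 and 2.25 CPM in treated and 0.729, 1.46 and 0.915 CPM in control tumors (log2 fold change 1.44 ± 0.47, edgeR adjusted p = 0.0268), a gap that was narrow between the lowest treated and highest control tumor. Cd5, which dampens receptor signaling, was at 4.19, 12.1 and 6.25 CPM against 0.903, 3.23 and 1.73 CPM (1.96 ± 0.55, edgeR adjusted p = 0.0127). Lck was at 6.01, 20.9 and 9.93 CPM against the control values above (1.60 ± 0.50, edgeR adjusted p = 0.0232). For these 3 genes, too, each treated tumor exceeded each control, and treated replicate 2 was again the highest.

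The other 4 members did not pass at TP1. Cd4 was at 6.63, 23.1 and 8.57 CPM in treated and 2.40, 5.91 and 4.998 CPM in control tumors, without overlap (log2 fold change 1.53 ± 0.64, edgeR adjusted p = 0.0787), and Cd3g overlapped, at 2.47, 8.85 and 3.80 against 0.555, 2.60 and 1.54 CPM (1.70 ± 0.72, edgeR adjusted p = 0.0824). Cd8a was at 0.376, 0.566 and 3.37 CPM after treatment and 0.243, 0.789 and 0.588 CPM without (1.41 ± 0.88, edgeR adjusted p = 0.238). Treated replicate 3, not replicate 2, was the high tumor for Cd8a. Cd8b1 was at 0.156, 0.283 and 0.388 CPM against 0.139, 0.355 and 0.0980 CPM, with a 95% interval of the log2 fold change from -1.30 to 2.30. In all, 6 of the 9 members had no overlap between the groups, against 25.9% of all genes tested whose treated tumors all lay above the controls. The members' median log2 fold change was 1.60, and that of all genes tested was -0.0022. The count of 5 calls depended on single tumors: without control replicate 1, or without treated replicate 2, 0 of 9 were called, without control replicate 3, 2 were, and without control replicate 2 or treated replicate 3 Cd3d was lost. It also depended on the method: DESeq2 called 7, with Cd3g and Cd4 added (DESeq2 adjusted p from 0.0361 to 0.0392), limma-voom called 4, without Cd247 (limma adjusted p = 0.0634), and the replicate block left 4, without Cd3d (edgeR adjusted p = 0.0659).

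One week after the last dose all 9 members were called higher in 60577 tumors, by 3.75 times (Cd8b1) to 11.2 times (Cd5), against 14.8% of all genes tested. The 4 signaling chains and Lck rose by 6.46 to 9.17 times, and 8 of the 9 genes had no overlap between the 4 treated and the 3 control tumors, with the treated tumors higher, as did 25% of all genes tested. The median log2 fold change was 2.81 for the members and 0.03 for all genes tested.

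Among the signaling chains, Cd3e was at 34.1, 18.8, 18.0 and 24.3 CPM in treated tumors, a mean of 23.8 ± 7.44 (SD, n = 4), and 3.65 ± 1.19 (SD, n = 3) in controls (log2 fold change 2.69 ± 0.42 SE, edgeR adjusted p = 0.00011). Cd3d was at 14.3, 10.1, 5.56 and 8.42 CPM in treated tumors and 2.66, 0.0311 and 0.618 CPM in controls (3.11 ± 0.76, edgeR adjusted p = 0.00288). Every treated tumor was above every control for both. Control replicate 2 stood apart within its group: it held 1 count of Cd3d and 4 of Cd3g, but 114 of Cd3e, so that the ratio of Cd3e to Cd3d per kilobase of exon was 50.7 there and 0.801 to 3.71 in the other 16 60577 tumors. Gm48720, an annotated gene that overlaps Cd3e on the same strand, had 15 counts in that tumor and 1 to 4 in the other 60577 controls; its part in the ratio was not tested.

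Cd3g was at 21.3, 10.2, 7.67 and 8.66 CPM in the treated tumors and 2.82, 0.124 and 1.15 CPM in the controls (log2 fold change 3.12 ± 0.72, edgeR adjusted p = 0.00204). Cd247 was at 9.22, 5.91, 4.53 and 5.62 CPM against 1.38, 0.342 and 0.988 CPM (2.81 ± 0.46, edgeR adjusted p = 0.000165). Neither gene overlapped between groups, and treated replicate 1 held the highest level of all 4 signaling chains.

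Of the coreceptors, Cd4 rose from 8.62, 0.498 and 5.07 CPM to 46.8, 30.1, 23.5 and 28.7 CPM (log2 fold change 2.77 ± 0.64, edgeR adjusted p = 0.00195). Cd8a rose from 2.16, 0.0934 and 0.371 CPM to 3.66, 4.01, 4.97 and 4.09 CPM (2.23 ± 0.80, edgeR adjusted p = 0.0271), and Cd8b1 from 0.721, 0.0622 and 0.0412 CPM to 1.83, 1.203, 0.492 and 0.722 CPM (1.91 ± 0.69, edgeR adjusted p = 0.0276). Cd8b1 was the member whose groups overlapped, through treated replicate 3. The 2 CD8 calls were the least stable. The replicate block took Cd8a out of the call (edgeR adjusted p = 0.0590, 8 of 9 members called), and without control replicate 2 or control replicate 3 both genes missed the threshold, with edgeR adjusted p from 0.0835 to 0.104. Without treated replicate 1 Cd8b1 missed it (edgeR adjusted p = 0.0808).

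Cd5 showed the largest change of the 9, from 3.84, 0.529 and 1.40 CPM to 24.9, 17.5, 22.2 and 22.02 CPM (log2 fold change 3.48 ± 0.55, edgeR adjusted p = 0.000123). Lck rose from 8.03, 1.37 and 3.71 CPM to 48.8, 30.3, 36.9 and 45.0 CPM (3.20 ± 0.51, edgeR adjusted p = 0.000124). The treated tumors lay close together for both genes, and TP2 control replicate 2 was the lowest control. In bulk tumors, more T cells and more RNA per T cell cannot be told apart.

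At TP3, 21 days after the last dose, all 9 members were still above the TP2 controls in 60577, by 3.84 to 12.0 times and without overlap for any of the 9, against 14.2% of all genes tested that were called higher and 28.2% that were higher without overlap. The median log2 fold change was 3.18 for the members and -0.00093 for all genes. Cd4 was at 46.4, 59.3, 50.9 and 49.1 CPM (log2 fold change 3.46 ± 0.65, edgeR adjusted p = 0.000452), and Cd3g, with the largest change, at 16.9, 14.6, 15.0 and 18.7 CPM (3.58 ± 0.73, edgeR adjusted p = 0.00085). Cd8a was at 2.66, 3.02, 4.20 and 6.01 CPM (2.18 ± 0.80, edgeR adjusted p = 0.0333), and Cd8b1 at 0.900, 1.13, 1.10 and 1.21 CPM (1.94 ± 0.69, edgeR adjusted p = 0.0279). The 4 tumors were close to each other for most members, with Cd3e at 25.4, 24.3, 23.5 and 31.2 CPM. Both CD8 genes again missed the threshold without TP2 control replicate 2 or replicate 3, or without TP3 treated replicate 4, Cd8a missed it without TP3 treated replicate 3 (edgeR adjusted p = 0.0540), and the replicate block left 8 calls (Cd8a edgeR adjusted p = 0.0842).

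Between the treated groups, Cd3e, Cd5 and Lck rose from TP1 to TP2 (log2 fold changes 1.33 ± 0.39, 1.52 ± 0.49 and 1.71 ± 0.47, edgeR adjusted p = 0.0302, 0.0431 and 0.0230), 3 of 9 members against 6.02% of all genes. All 9 fold changes were positive, from 1.17 to 1.96 on the log2 scale, and 6 of the 9 did not overlap, against 13.7% of all genes tested that were higher at TP2 without overlap. The count of 3 calls depended on the fit: without TP1 treated replicate 1 or TP2 treated replicate 4 it was 0, without TP1 treated replicate 3 it was 1, without TP2 treated replicate 3 it was 2, without TP1 treated replicate 2 it was 5, and with the replicate block it was 0. From TP2 to TP3, 0 of 9 members were called, against 7.88% of all genes, and 0 had an unadjusted p under 0.05; limma-voom and DESeq2 also called 0. All 9 overlapped between these groups, whereas 29.1% of all genes tested did not. The log2 differences ran from -0.30 (Lck, 95% interval -1.17 to 0.56) to 0.69 (Cd4, -0.42 to 1.80), so a change within those intervals was not detectable with 4 tumors a group. In rank order of the group means, Cd3d, Cd3e, Cd3g, Cd247, Cd4 and Cd8b1 went from the controls through TP1 and TP2 to TP3, while Cd8a, Cd5 and Lck had their highest mean at TP2; no member was called between the neighbors TP2 and TP3, or between the 2 control groups.

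**Figure D2:**
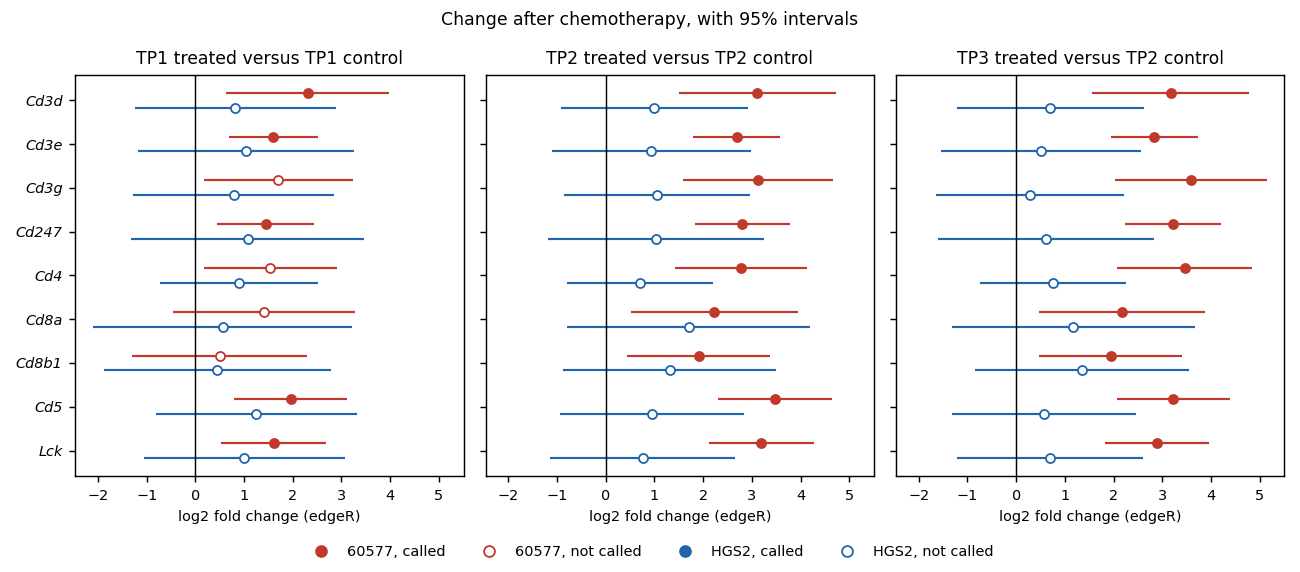
Log2 fold changes of the 9 genes with 95% intervals, treated against control at TP1 and TP2 and TP3 treated against TP2 control, for 60577 and HGS2. The 60577 estimates at TP2 run from 1.91 to 3.48 with intervals above 0, and every HGS2 interval spans 0.

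Other genes of T cells moved with the members in 60577. Among 7 genes for the constant regions of the antigen-binding chains, 4 were tested, and 3 were called higher at TP2: Trbc1 (log2 fold change 3.80 ± 0.67), Trbc2 (3.11) and Trdc (2.02), the first 2 from the beta and the last from the delta chain. Trac, of the alpha chain, was at 0.79 and missed the call, and Tcrg-C1, Tcrg-C2 and Tcrg-C4 were not tested because of low counts. At TP1 3 of the 4 were called and at TP3 all 4.

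Of 23 genes of T cell receptor signaling, 14 were called higher at TP1, 19 at TP2 (median log2 fold change 2.82) and 19 at TP3, and 0 were lower at any of these times. The largest changes at TP2 were those of Trat1 (4.58), a receptor-associated adaptor, Tespa1 (4.06), Skap1 (3.76), Zap70 (3.68), the kinase that binds phosphorylated CD3 and zeta chains, and Lat (3.67), the adaptor that ZAP70 phosphorylates. Fyn, Csk, Vav1 and Plcg1 were not called. Of 11 tested genes of co-stimulation and the T cell surface, 7, 11 and 10 were called higher at TP1, TP2 and TP3, among them the costimulatory receptor Cd28 (3.68 at TP2), Cd96 (3.71), Cd2 (3.51), Cd6 (3.51) and Cd27 (3.50), while Cd40lg was not tested. Of 11 T lineage transcription factors, 1, 6 and 8 were called higher, with Ikzf3 (3.53), Satb1 (3.15), Tox (2.28), Lef1 (2.13) and Ikzf1 (1.497) the largest at TP2.

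Markers of other cell types moved in the same comparisons. Of the natural killer cell genes 3 of 8 were tested (Ncr1, Klra4, Klra7, Klra8 and Klre1 were too low), and Klrk1, Eomes and Klrb1c were called higher at TP2 (2.89, 2.78 and 1.79 on the log2 scale) and 0 at TP1, with a summed level of 0.373 to 2.95 CPM in TP2 controls and 6.79 to 13.3 CPM in TP2 treated tumors. All 8 B cell genes rose at TP2, with Cr2 (4.56), Blk (4.39), Pax5 (4.19) and Fcer2a (3.81) among the largest, from a summed 3.89 to 23.1 CPM to 89.2 to 261 CPM, and to 328 to 424 CPM at TP3; at TP1 0 of 8 were called. Of 8 dendritic cell genes 2, 7 and 7 were called higher at TP1, TP2 and TP3, led by Clec9a (3.68), Flt3 (3.27), Xcr1 (2.89), Ccr9 (2.80) and Siglech (2.702), with a sum of 34.7 to 59.2 CPM in TP2 controls and 112 to 133 in TP2 treated tumors.

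Of 5 general leukocyte genes 3, 3 and 4 were called higher, with Ptprc at 1.75, Cd52 at 1.39 and Coro1a at 1.38 at TP2, and of 7 macrophage genes 1, 1 and 2 were, with Mrc1 at 1.18. The leukocyte sum went from 242 to 339 CPM in TP2 controls to 487 to 872 CPM in TP2 treated tumors. Of 6 tested lymphoid stroma genes 2, 3 and 4 were called higher, with Ccl19 (7.30), Ltb (2.90) and Tnfrsf13c (2.69) at TP2, while Glycam1 was not tested. The part of these cells in the members' levels was not tested.

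Genes of the tissue around the T cells moved too. All 6 tested epithelial genes were lower at TP1, TP2 and TP3, with Krt18 (-3.15), Krt8 (-2.98), Cdh1 (-2.54), Krt19 (-2.42) and Epcam (-2.41) the largest at TP2, and Cldn4 and Pax8 were not tested. Their sum was 1885 to 2898 CPM in TP2 controls, 304 to 584 in TP2 treated and 204 to 324 in TP3 treated tumors. All 5 adipocyte genes rose at every time, with Adipoq (6.32), Cidec (6.06), Lep (5.75), Plin1 (5.29) and Fabp4 (2.68) at TP2, where their sum went from 2.58 to 16.9 CPM to 81.4 to 608 CPM. All 6 pancreas acinar genes were lower at TP2, led by Prss2 (-7.56), Ctrb1 (-7.08), Cela3b (-7.03), Cpa1 (-7.03) and Cela2a (-6.75), from a sum of 1.56 to 1198 CPM in the 3 controls to 0.762 to 12.3 CPM, and 0 of 6 were called at TP1 or TP3. The part of these shifts in the members' CPM was not tested.

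**Figure D3:**
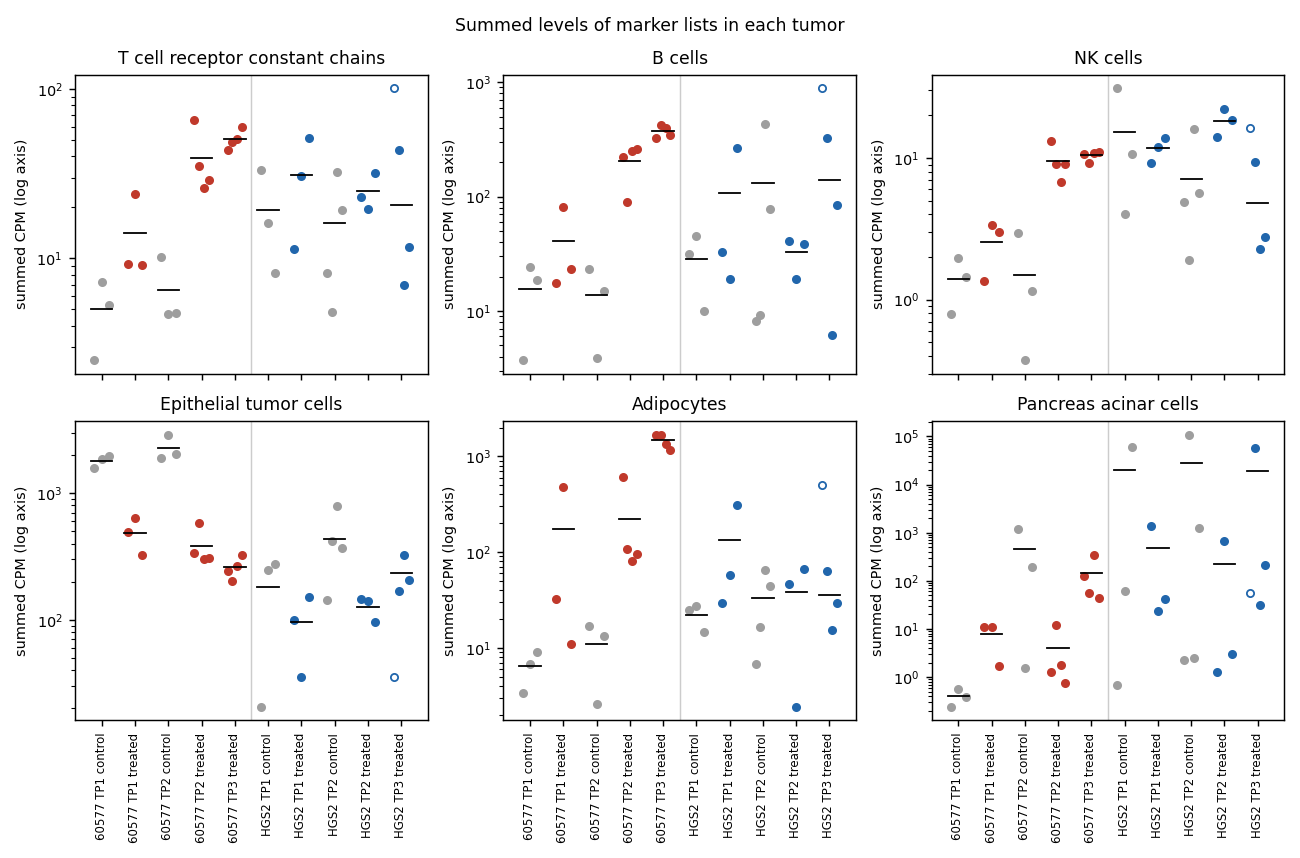
Summed CPM of marker lists in every tumor, on a log axis, by model, time point and treatment; each point is 1 tumor, colored as in the plot of the 9 genes. In 60577 the B cell sum is 328 to 424 CPM in the TP3 treated tumors and the epithelial sum 204 to 324, against 3.71 to 24.3 and 1584 to 2898 in the controls.

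In HGS2 tumors 0 of 9 members were called after treatment at TP1, TP2 or TP3, against 0% of all 16239 genes tested in each of the 3 comparisons. All 9 fold changes were positive in each, with medians of 0.89, 1.00 and 0.69 on the log2 scale (all genes 0.0010, -0.02 and 0.0036), although at TP3 Cd3e, Cd3g and Cd247 turned negative with limma-voom and all 9 without the acinar-rich tumors, and no member had an unadjusted p under 0.05, which 413, 1233 and 406 genes had. limma-voom and DESeq2 called 0 members in all 3. Marker lists of T cells and of other cell types also had 0 called genes. The intervals were wide: that of Cd3e was -1.18 to 3.25 at TP1, -1.11 to 2.97 at TP2 and -1.53 to 2.56 at TP3. The size of its rise in 60577 at TP2 (2.69, its SE left aside) lies inside the HGS2 interval at TP2.

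The spread among HGS2 tumors varied by group and gene: for Cd3d the TP2 treated tumors lay close together, at 5.70 to 6.69 CPM, and the TP1 treated tumors did not, at 2.07 to 11.4 CPM. Cd3e was at 15.4, 5.05 and 3.25 CPM in TP1 controls and 3.96, 17.9 and 25.3 CPM in TP1 treated tumors, with treated replicate 1 among the controls (log2 fold change 1.04 ± 1.03). In TP2 controls it was at 3.69, 0.697, 13.2 and 8.22 CPM, and in TP2 treated tumors at 11.8, 8.87 and 15.9 CPM (0.93 ± 0.95). The lowest TP2 control, replicate 2, is the tumor with the highest acinar level.

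At TP3, the treated replicates 2 to 4 had 21.1, 1.04 and 5.42 CPM of Cd3e, a span that covers the TP2 controls (0.51 ± 0.95). Lck ranged from 1.66 to 21.5 CPM in the 4 TP2 controls, from 12.7 to 18.4 in the 3 TP2 treated tumors and from 2.699 to 35.9 in the 3 TP3 treated tumors. Replicate 2, the highest of these 3 for all 9 members, is the acinar-rich tumor of that group.

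Without the 3 acinar-rich tumors, all 9 log2 fold changes of TP3 treated tumors against TP2 controls turned negative, from -0.53 (Cd4) to -1.96 (Cd8a), and 0 were called. Cd247 was at 8.65, 0.0461 and 2.45 CPM in TP3 treated replicates 2 to 4, where the low value rests on 2 counts in a tumor that had 177 counts of Cd4, 151 of Cd5 and 117 of Lck.

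In HGS2 at TP2, 6.39% of all genes tested were higher in treated tumors without overlap, and 1 of the 9 members was, Cd8a. At TP2 it was at 13.4, 12.3 and 21.4 CPM in treated and 4.80, 0.387, 8.06 and 6.06 CPM in control tumors, without overlap (log2 fold change 1.71 ± 1.16, 95% interval -0.79 to 4.20, edgeR adjusted p = 0.712). Its partner Cd8b1 was at 3.45, 2.90 and 4.71 CPM against 1.19, 0.387, 2.94 and 1.44 CPM, and overlapped by treated replicate 2. Cd4 did not separate, at 15.8, 14.9 and 13.3 CPM against 4.36, 2.01, 16.96 and 12.9 CPM. At TP1 Cd8a was at 2.10, 27.5 and 19.9 CPM in treated and 27.5, 2.60 and 4.86 CPM in control tumors, nearly the same range in both. No member other than Cd8a was free of overlap at TP2, and 0 of 9 were at TP1 or TP3. Of all genes tested, 2.68% at TP1, 6.39% at TP2 and 1.23% at TP3 were higher in treated tumors without overlap.

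Between HGS2 groups of the same treatment, 0 of 9 members were called from TP1 to TP2 treated, TP2 to TP3 treated or TP1 to TP2 control, against 0% of all genes each time, and all 9 overlapped in each, whereas 5.26%, 17.2% and 3.54% of all genes did not. Unadjusted p under 0.05 was reached by 0 members and by 152, 1690 and 569 of all genes, and limma-voom and DESeq2 called 0 members. Cd3d, Cd3g, Cd5 and Cd8b1 in HGS2 spanned 0.232 to 11.4, 0.503 to 13.6, 0.658 to 19.2 and 0.387 to 10.01 CPM over the 16 tumors tested.

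The responses of the models were compared directly by the difference between their treated-to-control changes. At TP1, 0 of 9 members were called, against 1.45% of the 16241 genes tested, 0 had an unadjusted p under 0.05, and the lowest edgeR adjusted p was 0.578. At TP2, 0 of 9 were called against 6.9% of genes, and limma-voom and DESeq2 called 0 at both times. All 9 differences at TP2 were negative (a smaller change in HGS2), from -0.54 for Cd8a to -2.56 for Cd5, and 3 had an unadjusted p under 0.05: Cd4 (-2.08 ± 1.00, edgeR adjusted p = 0.167), Cd5 (-2.56 ± 1.10, edgeR adjusted p = 0.124) and Lck (-2.46 ± 1.08, edgeR adjusted p = 0.133). The 95% interval for Cd8a ran from -3.58 to 2.49. The calls in 60577 and their absence in HGS2 were not shown to differ for any member. Without the 3 acinar-rich HGS2 tumors, 2 members, Cd5 and Lck, were called different at TP2 (edgeR adjusted p from 0.0341 to 0.0458).

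The untreated tumors of the models differed in 5 members, all higher in HGS2: Cd8a, Cd8b1, Cd3d, Cd3g and Cd247, against 22% of all genes called in either direction. Cd8a was at 27.5, 2.60 and 4.86 CPM in the TP1 and 4.80, 0.387, 8.06 and 6.06 CPM in the TP2 controls of HGS2, compared with 0.0934 to 2.16 CPM in the 6 60577 controls (log2 fold change 3.44 ± 0.86, edgeR adjusted p = 0.00173). Cd8b1 was at 7.18, 1.40 and 1.00 and at 1.19, 0.387, 2.94 and 1.44 CPM, compared with 0.0412 to 0.721 CPM (3.21 ± 0.76, edgeR adjusted p = 0.00104). For both CD8 genes 6 of the 7 HGS2 controls lay above all 60577 controls, and the exception was TP2 control replicate 2. Of the 6 60577 controls, 1 reached 1 CPM of Cd8a and 0 did of Cd8b1. Both genes therefore entered this test mainly through the HGS2 and the treated tumors.

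The changes of Cd3d (1.98 ± 0.67, edgeR adjusted p = 0.0163), Cd3g (1.54 ± 0.64, edgeR adjusted p = 0.0458) and Cd247 (1.49 ± 0.62, edgeR adjusted p = 0.0481) were smaller, and Cd3e (1.08), Cd4 (1.16), Cd5 (1.34) and Lck (1.17) were not called, with edgeR adjusted p from 0.0522 to 0.115. No member was free of overlap between the models, whereas 23% of all genes tested were, in either direction. The calls of Cd8a, Cd8b1 and, with 1 exception, Cd3d held in every setting, but the count moved from 3 to 9: without 60577 TP2 control replicate 1 it was 8, without HGS2 TP2 control replicate 2 it was 9, and it was 3 without any of HGS2 TP1 control replicate 1, HGS2 TP2 control replicates 3 or 4, or 60577 TP1 control replicates 1 or 3 or TP2 control replicates 2 or 3. Reads of FVB mice were mapped to the C57BL/6J genome, and the part of strain variants in these differences was not tested. In the same comparison all 7 macrophage genes were higher in HGS2 (summed 1283 to 2740 CPM against 397 to 1064 CPM in 60577) and 5 of 6 epithelial genes lower, and their part was not tested either.

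The coreceptors were also set against each other within each tumor. Per kilobase of exon, the ratio of Cd8a to Cd4 was 0.0272 to 0.436 (median 0.130) in the 17 60577 tumors and 0.213 to 2.33 (median 0.550) in the 16 HGS2 tumors. In 60577 its median was 0.139 in the 6 controls and 0.0916 in the 11 treated tumors, with 0.0565 to 0.136 at TP3. The 60577 control ratios rest on only 3 to 66 counts of Cd8a, with 16 counts of Cd4 in TP2 control replicate 2. In HGS2 it was 0.522 in the 7 controls and 0.911 in the 9 treated tumors, with 0.911, 0.939 and 1.78 at TP2. The ranges of the models overlap, and these ratios are given without a test. CD8 alpha on dendritic cells and CD4 on myeloid cells can enter them, and that part was not tested.

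**Figure D4:**
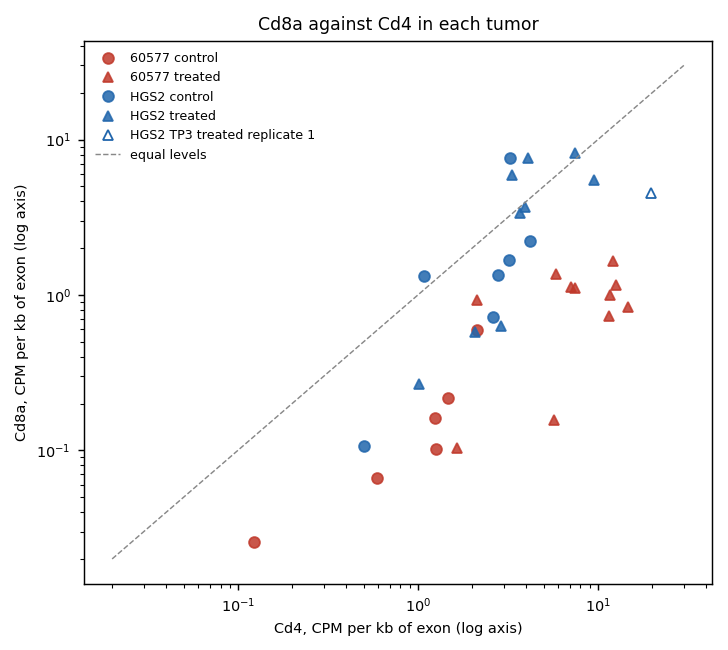
Cd8a against Cd4 in every tumor, both as CPM per kilobase of exon on log axes. Each point is 1 tumor, with color for the model, circles for controls and triangles for treated tumors. A hollow point is the tumor that is not among the 33 tested. At a like level of Cd4, HGS2 points lie mostly above 60577 points, as in the ratios per kilobase of 0.213 to 2.33 and 0.0272 to 0.436.

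Ratios of other members had closer medians in the 2 models. Per kilobase, Lck to Cd3e had a median of 1.91 in 60577 and 1.80 in HGS2, Cd5 to Cd3e 0.604 and 0.618, Cd247 to Cd3e 0.240 and 0.312, and Cd8b1 to Cd8a 0.817 and 0.735. In 60577 TP2 treated tumors the order of members per kilobase was Lck (median 14.0 CPM per kilobase), Cd4 (7.29), Cd3e (5.27), Cd3d (5.11), Cd5 (4.49), Cd3g (2.88), Cd8a (1.11), Cd247 (1.08) and Cd8b1 (0.649). In HGS2 TP2 treated tumors it was Lck (5.16), Cd4 (3.70), Cd8a (3.67), Cd3d (3.51), Cd3e (2.90), Cd8b1 (2.33), Cd3g (2.28), Cd5 (1.86) and Cd247 (1.02). The ranges of most neighbors in these orders overlapped. Those that did not were Cd3g and Cd8a in 60577, and Lck and Cd4, and Cd5 and Cd247, in HGS2. The order of all other neighbors is not beyond their spread. Every order also depends on the length used, the merged exons of all annotated transcripts of a gene. Which transcripts were expressed was not tested.

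The genes whose levels followed the mean of Cd3d, Cd3e and Cd3g most closely were found by Pearson's r over log2 CPM, over the 17 60577 and the 16 HGS2 tumors apart, taking the lower r of the pair as a description. Among the first 10 that are not members were Ms4a4b (0.974), Cd27 (0.972), Trbc2 (0.968), Sh2d2a (0.966), Sash3 (0.958), Irf8 (0.956), Themis (0.956), Trbc1 (0.953) and Tbx21 (0.952). Ms4a4b is a surface protein of T cells, Themis an adaptor of receptor signaling, and Irf8 and Tbx21 are transcription factors. With Spearman's rho, 2 of the 10 stayed in the first 10. Among the other members, Lck had a lower r of 0.972, Cd4 0.935, Cd5 0.924, Cd247 0.902, Cd8b1 0.887 and Cd8a 0.872. The tumors of a model share treatment, depth and the mix of tissue, so these values carry no test.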

How the data were processed

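RNA of frozen omental tumors and of cell lines was depleted of ribosomal RNA and sequenced as strand-specific paired-end reads of 150 bases. The authors trimmed reads with Trim Galore 0.6.5, aligned them with STAR 2.7.0f to mm10 (GRCm38) and estimated expected counts per Ensembl gene with RSEM, and these deposited expected counts were used here after rounding to whole numbers. The strand setting of RSEM is not given in the sources used here, so reads of genes that overlap a member (Gm48719 and Gm48720 with Cd3e, Pou2f1 with Cd247) may not be told apart. Columns were assigned to groups by the labels.

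A gene was tested when 25% or more of the 33 tumors reached 1 CPM, which left 16232 genes in 60577, 16239 in HGS2 and 16241 in both. edgeR 4.0.16 (R 4.3.3) was used with TMM scaling and the quasi-likelihood F test, two-sided, with 1 fit of 5 groups per model, or of 10 groups for differences between models, and Benjamini-Hochberg adjustment over all genes tested. Calls needed an adjusted p under 0.05 and a log2 fold change beyond 1. CPM levels use TMM library sizes, and cell lines their total counts. limma 3.58.1 and DESeq2 1.42.0 were alternatives. The code was tested on simulated counts. Levels between genes were divided by exon length, taken as the merged exons of all annotated transcripts. The 9 members and the 13 marker lists were chosen with earlier results of these data known. All members were named; of each list, the called genes with the 5 largest changes at TP2 were named, with any not tested. Some genes that these rules name are not reported here. No replicates were near-copies of each other.

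Neither the labels nor the study's text pair tumors across groups, but deviations of same-numbered tumors correlated above 0.1 in all TP2 pairs (0.115 to 0.144 in 60577 and 0.136 to 0.298 in HGS2) and not in all TP1 pairs (-0.275 to 0.130), so values with the replicate block are given beside the TP2 results where they change a call. Nothing says that tumors shared a batch. P-values measure the spread between mice. Precision follows from 17839635 to 49299442 counts per tumor and 3 or 4 tumors a group, and counting floors cover counting error only.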

Additional observations from a re-analysis of the deposited data

Results flagged for a closer look

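The HGS2 TP3 treated tumor of replicate 1, which is in the count table and entered only the alternative analysis of all 34 tumors, held more of 7 of the 9 genes than any of the 7 HGS2 controls. Cd3d was at 19.6 CPM (highest control 7.11), Cd3e at 38.0 (15.4), Cd3g at 25.7 (9.66) and Cd247 at 15.9 (4.87). Cd4 was at 79.9 CPM (16.96), Cd5 at 37.7 (13.0) and Lck at 74.1 (21.5). Cd8a (16.5 CPM) and Cd8b1 (6.06 CPM) were inside the range of the controls. In the same tumor the summed B cell genes were at 888 CPM, the adipocyte genes at 500 CPM and the epithelial genes at 35.5 CPM, and their part in these levels was not tested.

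In the cell lines, which hold no host cells, a few counts lay above the floor of 3 counts. Cd247 had 8 and 4 counts in the 60577 libraries, and Lck had 11 and 7 counts in 60577 and 12 and 17 counts in HGS2. Among 36 sets of 4 tumors (1 gene in 1 group), each tested for a single tumor far from the rest (chance gives about 1 in 20), 0 had one. These sets share the same tumors between genes, so they are not independent. Groups of 3 tumors, among them the 60577 TP2 controls, were not checked in this way.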

How the results depend on the processing

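All 9 members were recomputed with DESeq2's size factors, no filter on low counts, limma-voom, DESeq2 itself, a replicate block, the compared groups alone, both models in 1 fit, all 34 tumors, without the 3 acinar-rich HGS2 tumors, and without each tumor in turn. Scaling by size factors moved the median of all genes by less than the 0.1 that would need a correction, and changed no sign. The rise of Cd3d, Cd3e, Cd3g, Cd247, Cd4, Cd5 and Lck in 60577 at TP2 and TP3 was called in every setting run, and those of Cd8a and Cd8b1 were lost in some, so that the count of 9 became 7 with the compared groups alone or with both models in 1 fit, 8 with the replicate block and 7 to 9 without single tumors. The 5 calls at TP1 became 7 with DESeq2, 4 with limma-voom or the replicate block, 0 with both models in 1 fit and 0 to 5 without single tumors. The 3 calls from TP1 to TP2 treated became 7 with limma-voom, 5 with DESeq2, 2 with no filter, 0 with the replicate block, the compared groups alone or both models in 1 fit, and 0 to 5 without single tumors. The 5 calls between controls of the models became 3 with all 34 tumors, no filter, limma-voom, the replicate block or the compared groups alone, 7 with DESeq2, 9 without the acinar-rich tumors, and 3 to 9 without single tumors. The difference in response at TP2 went from 0 calls to 2 without the acinar-rich tumors. Every other count was 0 in all settings, and the cause of these changes was not tested. The replicate block changed no other call than those given here and beside the results.

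Changes of sign arose mainly in comparisons with no call, and their cause was not tested; all values are log2 fold changes. With all 34 tumors the following turned sign: HGS2 TP3 treated against TP2 treated gave Cd3d 0.49, Cd3e 0.44, Cd3g 0.40, Cd247 0.47, Cd5 0.65 and Lck 0.96. With limma-voom the following turned sign: 60577 TP2 control against TP1 control gave Cd3d -0.61, Cd4 -0.60, Cd8a -0.14, Cd8b1 -0.22 and Lck -0.16, and HGS2 TP3 treated against TP2 control gave Cd3e -0.00507, Cd3g -0.0431 and Cd247 -1.14, and HGS2 TP2 treated against TP1 treated gave Cd3d 0.14, Cd3e 0.038, Cd3g 0.23, Cd8a 0.62, Cd8b1 0.38, Cd5 0.23 and Lck 0.0237, and HGS2 TP3 treated against TP2 treated gave Cd4 -0.53 and Cd8b1 -1.43, and HGS2 TP2 control against TP1 control gave Cd5 -0.71. With no filter on low counts the following turned sign: 60577 TP3 treated against TP2 treated gave Cd8a 0.00411. With the replicate block the following turned sign: HGS2 TP2 treated against TP1 treated gave Cd5 0.0375, and HGS2 TP3 treated against TP2 treated gave Cd4 -0.13, and HGS2 TP2 control against TP1 control gave Cd5 -0.33, and the difference in response at TP1 gave Cd8b1 0.0917. Without the 3 acinar-rich HGS2 tumors, a choice made after the data were seen, the following turned sign: HGS2 TP1 treated against TP1 control gave Cd8b1 -0.0266, and HGS2 TP3 treated against TP2 control gave Cd3d -0.93, Cd3e -1.38, Cd3g -1.29, Cd247 -1.35, Cd4 -0.53, Cd8a -1.96, Cd8b1 -1.35, Cd5 -0.80 and Lck -1.46, and HGS2 TP3 treated against TP2 treated gave Cd4 -0.90 and Cd8b1 -2.34. Without single tumors, these results took both signs. 60577 TP1 treated against TP1 control ranged over Cd8a -0.19 to 1.87. 60577 TP3 treated against TP2 treated ranged over Cd3d -0.13 to 0.36, Cd8a -0.32 to 0.0974 and Cd8b1 -0.19 to 0.47. 60577 TP2 control against TP1 control ranged over Cd3d -1.36 to 1.10, Cd3e -0.0509 to 0.63, Cd3g -1.35 to 0.38, Cd247 -0.66 to 0.21, Cd4 -0.71 to 0.64, Cd8a -1.26 to 1.27, Cd8b1 -1.76 to 1.23, Cd5 -1.04 to 0.55 and Lck -0.69 to 0.55. HGS2 TP1 treated against TP1 control ranged over Cd8a -0.0173 to 2.15 and Cd8b1 -0.0883 to 1.80. HGS2 TP3 treated against TP2 control ranged over Cd3d -0.51 to 1.41, Cd3e -0.98 to 1.10, Cd3g -0.90 to 0.79, Cd247 -0.96 to 1.197, Cd4 -0.18 to 1.24, Cd8a -1.55 to 1.72, Cd8b1 -1.01 to 1.89, Cd5 -0.40 to 1.59 and Lck -1.09 to 1.504. HGS2 TP2 treated against TP1 treated ranged over Cd3d -0.68 to 0.25, Cd3e -0.84 to 0.16, Cd3g -0.63 to 0.40, Cd247 -0.78 to 0.18, Cd4 -0.92 to 0.24, Cd8a -0.60 to 0.50, Cd8b1 -0.70 to 0.34, Cd5 -0.64 to 0.51 and Lck -0.72 to 0.40. HGS2 TP3 treated against TP2 treated ranged over Cd3d -1.51 to 0.11, Cd3e -1.91 to 0.11, Cd247 -1.98 to 0.17, Cd4 -0.88 to 0.51, Cd8a -3.25 to 0.0146, Cd8b1 -2.32 to 0.58 and Lck -1.84 to 0.43. HGS2 TP2 control against TP1 control ranged over Cd3d -1.12 to 0.13, Cd3e -0.86 to 0.61, Cd3g -0.94 to 0.43, Cd247 -0.87 to 0.0568, Cd8a -1.73 to 0.36, Cd8b1 -1.60 to 0.28, Cd5 -0.90 to 0.62 and Lck -0.86 to 0.62. The difference in response at TP1 ranged over Cd3e -1.14 to 0.32, Cd247 -0.94 to 0.19, Cd4 -1.45 to 0.0803, Cd8a -1.49 to 0.75, Cd8b1 -0.80 to 1.31 and Lck -1.34 to 0.0854. In 60577 at TP1, Cd8a turned negative without treated replicate 3.

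In 60577 controls Cd8b1 and Cd8a rest on few reads. Their SE in 60577 at TP2 was larger than those of Cd3e and Lck, but that of Cd8b1 was below those of Cd3d and Cd3g. The part of depth in these SEs was not tested. The change in 60577 at TP2 lies inside the HGS2 interval at TP2 for Cd3e, Cd247, Cd8a and Cd8b1, and above it for Cd3d, Cd3g, Cd4, Cd5 and Lck. That sorting leaves out the SE of the 60577 changes and shows no difference between the models. The direct comparison of the responses at TP2 called 0 members in the main fit. Leaving out a tumor from a group of 3 leaves 2, and the fit then borrows the spread of the other groups.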
